A study of Drosophila melanogaster with 6 samples.

Results

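The unfolded protein response was examined in Drosophila S2 cells through 9 genes of the pathway, chosen by name: the sensors PEK, Ire1 and Atf6, the transcription factors crc and Xbp1, the translation repressor Thor, and the chaperones and folding enzymes Hsc70-3, Gp93 and Pdi. They were taken from a table of 14012 genes by their CG numbers, and the transcript rows of each gene were summed. All 9 passed the filter on low values (a mean of at least 1 FPKM) and were among the 7308 genes tested. FPKM, the unit of every level given here, counts sequenced fragments relative to transcript length and to all mapped fragments of a library. Levels of different genes can be set side by side only roughly, because the libraries, controls included, differed in their trend with transcript length.

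S2 cells are a hemocyte-like line from late embryos. The 6 libraries fell into 3 groups of 2: untreated cells (control), cells given double-stranded RNA against PARP1 (PARP1 KD), and cells given PJ34, an inhibitor of PARylation, the modification in which PARP enzymes attach poly(ADP-ribose) to proteins. The PJ34 libraries were made at 10 and 0.3 µM and the PARP1 KD libraries with 100 and 500 of a unit that the descriptions give both as nanograms and as micrograms. The table does not say which column held which dose, so treated libraries keep the numbers of their columns, and the spread within a treatment contains any effect of dose. The controls received no double-stranded RNA, so loss of PARP1 and exposure to double-stranded RNA cannot be told apart. All groups share the same cell line, and p-values measure the spread between these libraries only.

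When unfolded proteins build up in the endoplasmic reticulum, membrane sensors start separate signalling branches. PEK, the fly PERK, phosphorylates the initiation factor eIF2alpha, which slows most translation while favouring that of crc, the fly ATF4. Ire1 cuts an intron out of Xbp1 mRNA in the cytoplasm, which gives an active transcription factor, and Atf6 in mammals moves to the Golgi and is cut there by the proteases S1P and S2P to release its transcription factor part. Targets of these branches include chaperones of the endoplasmic reticulum and, in flies, Thor, the 4E-BP that binds eIF4E. Such sensing acts mostly on protein and splicing, which mRNA levels of the sensors do not show.

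The targeted gene was examined first. Parp1 stood at 51.6 and 29.9 FPKM in the controls, 16.7 and 10.2 in the PARP1 KD libraries and 39.3 and 50.2 in the PJ34 libraries. Both PARP1 KD values lay below both controls, with a log2 difference of −1.51 (SE 0.55, unadjusted p = 0.0194, limma adjusted p = 0.9996). The libraries were of similar depth, between 0.886 and 1.11 of control library 1 as judged from the steps of low values. They were less alike in content. Library 2 of PJ34 lay at least 2-fold from library 1 in 57.0% of the genes tested, with a median log2 difference of −1.19, against 24.5% for the controls and 0.164% for the PARP1 KD libraries. Its lower values fell mainly on long transcripts. Among genes of 4000 bases or more its median log2(FPKM + 1) was 1.003, against 2.89 in library 1 of PJ34. Among genes under 1000 bases the medians of these libraries were 5.45 and 5.38. Control library 1 was the highest of all libraries on the long genes, at 3.90, beside 2.94 in control library 2. Under 1000 bases the controls stood at 5.17 and 5.41. Of the hemocyte markers, srp (4.37 to 71.7 FPKM), Col4a1 (39.0 to 808.4), vkg (16.1 to 396.9) and crq (37.1 to 133.1) were present in every library, and eater ranged from 4.74 to 44.5. Pxn measured 4.09 and 101.9 FPKM in the controls, 94.7 and 75.3 in PARP1 KD and 4.97 and 0.61 in PJ34, so the controls themselves lay far apart. Hml and NimC1 did not exceed 2.24 FPKM. Of the neuronal, muscle and germline markers found in the table, elav and Mlc2 reached 3.79 and 5.93 FPKM and the others did not exceed 0.413.

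In untreated cells the 9 genes fell into a high and a low class. Pdi, a protein disulfide isomerase, had a control mean of 749.3 FPKM, followed by crc at 731.5, Xbp1 at 528.6, Thor at 417.3, Hsc70-3 at 315.3 and Gp93 at 234.7. The sensors were far lower, with control means of 33.9 FPKM for Ire1, 30.5 for Atf6 and 21.3 for PEK. The lower control value of Gp93 was 125.0 FPKM and the higher one of Ire1 was 41.4, so the classes did not overlap. Within the high class only crc and Xbp1 were neighbours with ranges apart, 617.9 to 845.0 against 527.1 to 530.1 FPKM. The ranges of the 3 sensors overlapped, and their order was not resolved.

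**Figure D1:**
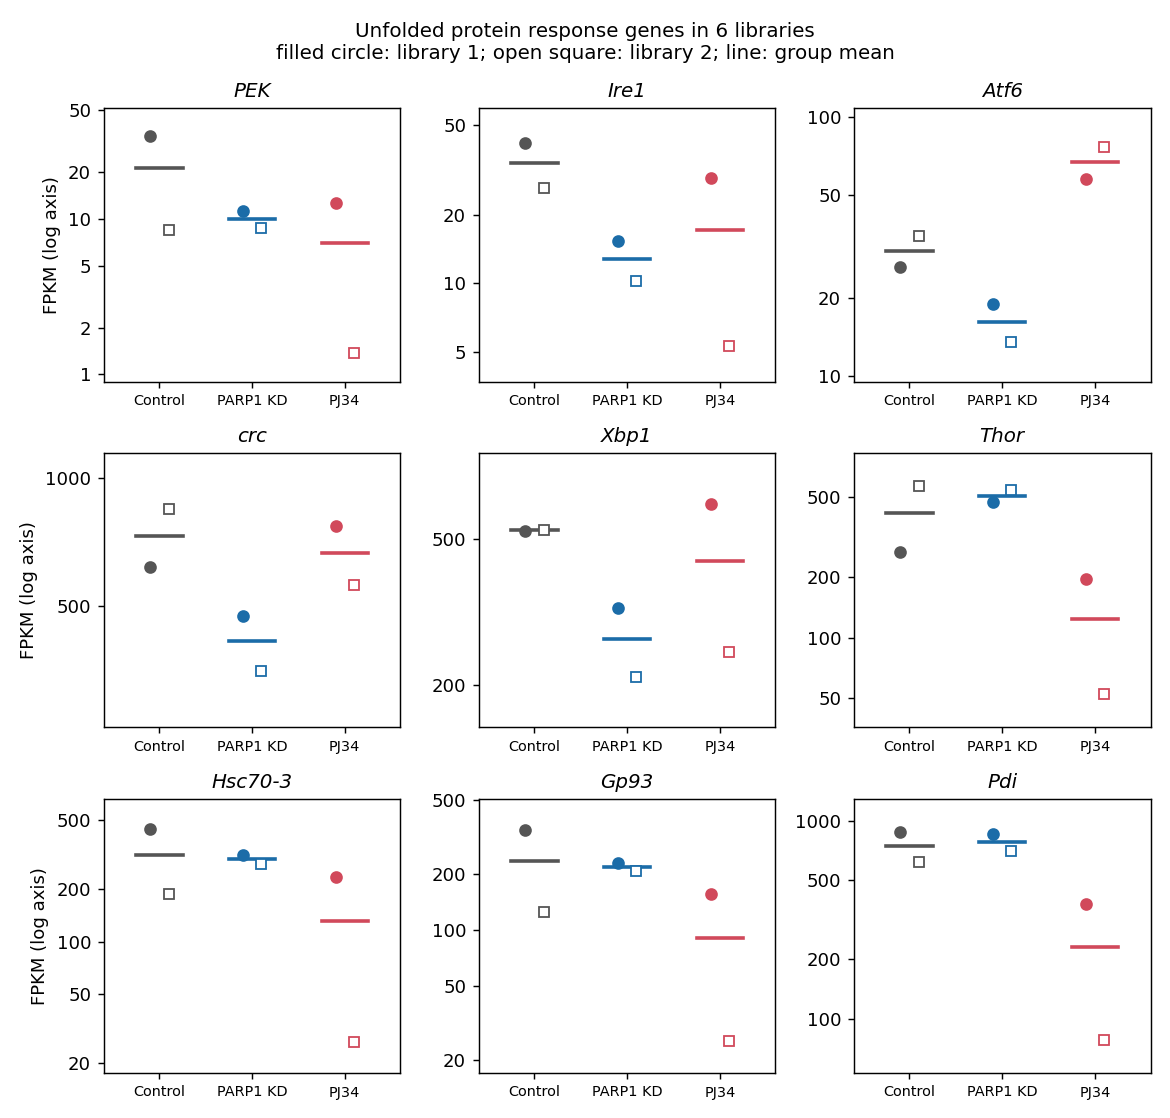
FPKM of each gene on a log axis of its own, for 2 control, 2 PARP1 KD and 2 PJ34 libraries. Filled circles are library 1, open squares library 2 and lines group means. Ire1, Atf6, crc and Xbp1 lie lower in both PARP1 KD libraries than in both controls, and Atf6 alone lies higher in both PJ34 libraries.

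The first comparison asked how the pathway stood after PARP1 was depleted. Ire1, Atf6, crc and Xbp1 were lower in both PARP1 KD libraries than in both controls, whereas the chaperone genes Hsc70-3, Gp93 and Pdi had nearly the same means as control. None of these differences passed the test. At an adjusted p under 0.05, limma called 0 of 7308 genes in this comparison (0% in each direction), and at an unadjusted p of at most 0.05 it called 26 genes higher (0.356%) and 183 lower (2.50%), none of them among the 9. Lower values without overlap were common: 34.9% of all genes tested had both PARP1 KD values below both controls, and 4 of the 9 did. Higher values without overlap were found in 10.5% of all genes and in none of the 9. Of all genes 71.9% were below 0, and 5 of the 9 were. The median log2 difference of the 9 was −0.74, beside −0.28 for all genes tested. After each library was corrected for its trend with transcript length, the median of the 9 was −0.09, with 4 above 0 and 5 below.

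The kinase and nuclease Ire1 (CG4583, 3R, 15680161 to 15687013 in dm3, as all positions given here) measured 41.4 and 26.4 FPKM in the controls and 15.3 and 10.2 in the PARP1 KD libraries. Its groups did not overlap, and its mean was 2.65-fold lower, with a log2 difference of −1.33 (SE 0.76, 95% interval −3.03 to 0.37, unadjusted p = 0.111, limma adjusted p = 0.9996). Xbp1 (CG9415, 2R, 17031049 to 17033255), the transcription factor made from the mRNA that Ire1 splices, measured 527.1 and 530.1 FPKM in the controls and 323.6 and 210.2 in PARP1 KD. The controls were nearly equal and both PARP1 KD values lay well under them, 1.98-fold lower on average. Its log2 difference was −1.02 (SE 0.50, 95% interval −2.13 to 0.10, unadjusted p = 0.0705), the lowest unadjusted p of the 9 genes in this comparison.

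The bZIP transcription factor gene crc (CG8669, 2L, 21310853 to 21319536) measured 617.9 and 845.0 FPKM in the controls and 472.9 and 349.9 in PARP1 KD. Both knockdown values were below both controls, and the log2 difference was −0.83 (SE 0.42, 95% interval −1.77 to 0.11, unadjusted p = 0.0781). Atf6 (CG3136, 2R, 1032201 to 1042266), the sensor that is itself a transcription factor precursor, measured 26.4 and 34.6 FPKM in the controls and 18.9 and 13.5 in PARP1 KD. Its groups did not overlap either, with a log2 difference of −0.88 (SE 0.51, unadjusted p = 0.115). For these 4 genes the direction was lower under each of the 16 alternatives run, and none of the alternatives brought a limma adjusted p under 0.05. Their log2 differences were closer to 0 after each library was corrected for its trend with transcript length: −0.70 for Ire1, −0.60 for Xbp1, −0.42 for crc and −0.32 for Atf6.

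The other genes did not separate. PEK (CG2087, 3R, 1284284 to 1290472), the eIF2alpha kinase, measured 34.2 and 8.46 FPKM in the controls, a 4.04-fold spread, and 11.3 and 8.76 in PARP1 KD. Both knockdown values lay within the range of the controls. Its log2 difference of −0.74 (SE 0.93) became 0.21 without control library 1, so its direction rested on that library.

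Thor (CG8846, 2L, 3478433 to 3479612), which holds eIF4E away from mRNA caps, measured 267.6 and 567.1 FPKM in the controls and 473.3 and 545.2 in PARP1 KD. Its knockdown values again lay between the controls, and its log2 difference of 0.38 (SE 0.62) became −0.16 without control library 1. The BiP gene Hsc70-3 (CG4147, X, 11695728 to 11701212), the main Hsp70 of the endoplasmic reticulum, measured 442.8 and 187.9 FPKM in the controls and 314.9 and 280.6 in PARP1 KD. The 2 knockdown libraries were close to each other and between the controls, with a log2 difference of 0.04 (SE 0.84).

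Gp93 (CG5520, 3R, 23774379 to 23777882), the fly Hsp90 of the endoplasmic reticulum, gave 344.4 and 125.0 FPKM in the controls and 231.0 and 208.3 in PARP1 KD. Its span overlaps that of another gene, CG4951, and strand was not in the table, so its values are uncertain. Pdi (CG6988, 3L, 15130429 to 15135745), which forms and rearranges disulfide bonds, gave 880.3 and 618.4 FPKM in the controls and 859.0 and 703.8 in PARP1 KD. For both genes the knockdown values lay within the control range, with log2 differences of 0.08 (SE 0.76) and 0.08 (SE 0.65). The 95% intervals were wide, from −1.62 to 1.78 for Gp93 and from −1.36 to 1.51 for Pdi, so similar means do not show that these levels were the same. Without control library 2 the log2 differences of Hsc70-3, Gp93 and Pdi were −0.57, −0.65 and −0.18.

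**Figure D2:**
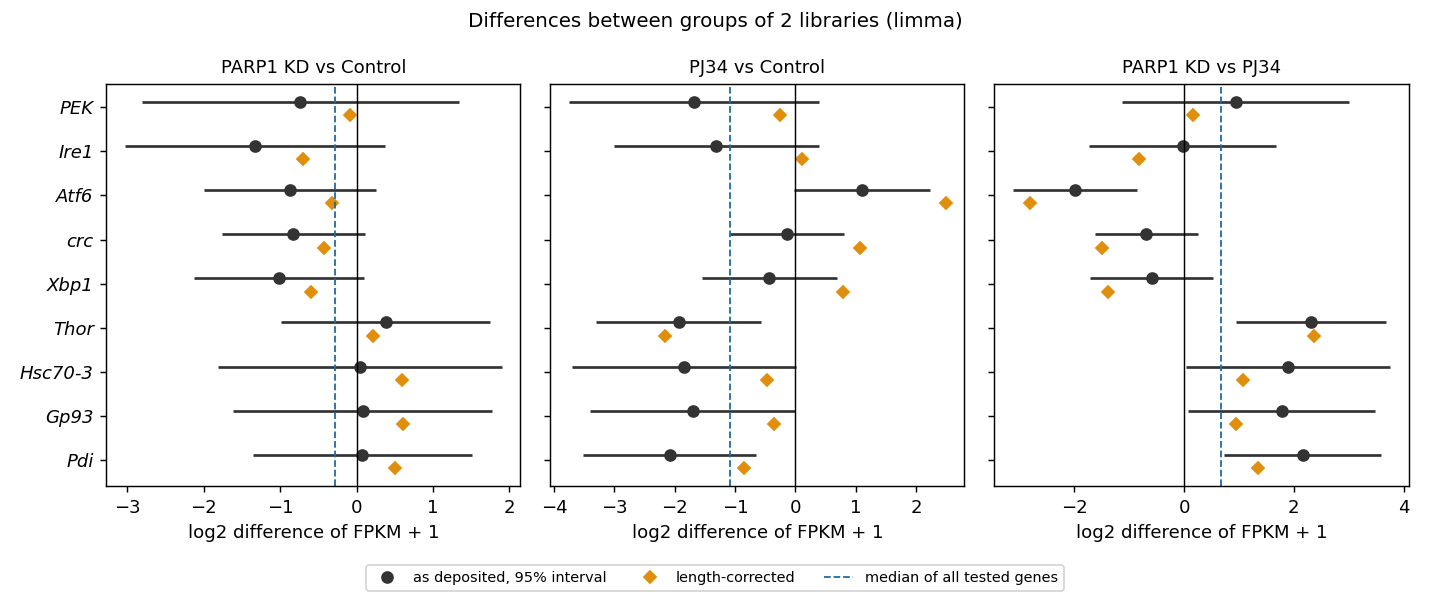
Log2 differences of FPKM + 1 in the 3 comparisons. Circles with bars are limma estimates with 95% intervals, diamonds are estimates after correction for transcript length, and the dashed line is the median of all genes tested (−0.28, −1.08 and 0.67). For PJ34 against control, Atf6, crc and Xbp1 lie to the right of that line, while Thor, Hsc70-3, PEK, Ire1, Gp93 and Pdi lie to its left.

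The second comparison asked how the same genes stood when PARylation was inhibited. Atf6 was higher in both PJ34 libraries than in both controls. Thor and Pdi were lower in both, Hsc70-3, Gp93, PEK, Ire1 and Xbp1 lay below both controls in library 2 of PJ34 only, and so did crc. None of the 9 passed the test, in which limma called 47 of 7308 genes (0.493% higher and 0.151% lower). At an unadjusted p of at most 0.05 it called 5.84% of all genes higher, none of the 9, and 25.3% lower, among them Thor, Gp93 and Pdi. Separation downwards was again common, with 54.1% of all genes having both PJ34 values below both controls, against 2 of the 9. Separation upwards was found in 13.1% of all genes and in 1 of the 9. Of all genes 79.9% were below 0, and 8 of the 9 were. The median log2 difference of the 9 was −1.68, beside −1.08 for all genes tested, so values are also given relative to that shift. After length correction the median of the 9 was −0.25, with 4 above 0 and 5 below. Of 6 hemocyte markers tested, 5 were below 0 in this comparison and eater above, with a median of −2.37. After correction of each library for its trend with transcript length, the median was −0.95, with 2 of 6 above 0. The part of these markers in the results was not tested. In bulk RNA, fewer cells of a type and less RNA per cell cannot be told apart.

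Atf6 measured 57.4 and 76.4 FPKM in the PJ34 libraries, against 26.4 and 34.6 in the controls. It was the one gene of the 9 that was not lower in library 2 of PJ34 than in library 1. Its mean was 2.20-fold higher than in control, with a log2 difference of 1.11 (SE 0.51, 95% interval −0.02 to 2.23, unadjusted p = 0.0534, limma adjusted p = 0.163). Relative to the median of all genes the difference was 2.18, which placed Atf6 at percentile 94.0 of the genes tested. It was 0.90 without PJ34 library 2 and 1.31 without PJ34 library 1 (limma adjusted p = 0.442 and 0.0221), where the remaining library is assumed to vary like the others. After length correction it was 2.49 (limma adjusted p = 0.0959).

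Thor measured 195.7 and 52.3 FPKM in the PJ34 libraries, against 267.6 and 567.1 in the controls. Both values lay below the controls, and the mean was 3.37-fold lower, with a log2 difference of −1.93 (SE 0.62, 95% interval −3.30 to −0.56, unadjusted p = 0.0102, limma adjusted p = 0.128). The median transcript of Thor has 711 bases, and genes under 1000 bases had a median difference of 0.18 in this comparison. The part of transcript length in the low values was not tested. The difference of Thor was −2.15 after length correction (limma adjusted p = 0.113), −0.79 after median centring (limma adjusted p = 0.468) and −0.85 relative to the median of all genes. Without PJ34 library 2 the log2 difference was −0.99.

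Pdi measured 382.2 and 78.2 FPKM in the PJ34 libraries, against 880.3 and 618.4 in the controls. The groups did not overlap, and the mean was 3.25-fold lower, with a log2 difference of −2.08 (SE 0.65, 95% interval −3.52 to −0.65, unadjusted p = 0.00871, limma adjusted p = 0.124). It was −0.95 without PJ34 library 2, −0.85 after length correction and −1.01 relative to the median of all genes. Without control library 2 it was −2.34 and passed the threshold (limma adjusted p = 0.0478).

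Hsc70-3 measured 235.4 and 26.4 FPKM in the PJ34 libraries and Gp93 measured 156.2 and 25.2. In both genes library 1 lay between the controls and library 2 far below them, 8.93-fold and 6.19-fold under library 1. Their log2 differences from control were −1.85 (SE 0.84, limma adjusted p = 0.161) and −1.70 (SE 0.76, limma adjusted p = 0.161). Without PJ34 library 2 they were −0.29 and −0.41, so most of both differences rested on that library. Relative to the median of all genes they were −0.77 and −0.62.

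The sensor genes PEK and Ire1, whose median transcripts have 4265 and 4034 bases, showed the same split. PEK measured 12.7 and 1.37 FPKM and Ire1 29.0 and 5.31 in the PJ34 libraries. Their log2 differences were −1.68 (SE 0.93) and −1.31 (SE 0.76), and for genes of 4000 bases or more the median difference was −1.45. Relative to the median of all genes they were −0.60 and −0.23. After length correction PEK stood at −0.25 and Ire1 at 0.12, so the direction of Ire1 turned.

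Xbp1 measured 625.3 and 245.5 FPKM in the PJ34 libraries, one above and one below the nearly equal controls. Its log2 difference was −0.43 (SE 0.50), but it was 0.71 after centring each library on its median and 0.79 after length correction, so its direction turned with the scaling. The gene crc measured 770.3 and 559.1 FPKM, on both sides of the lower control. Its log2 difference was −0.14 (SE 0.42) as deposited, 1.0004 after median centring and 1.06 after length correction. Relative to the median of all genes, Atf6, crc and Xbp1 were the 3 of the 9 that lay above it, at 2.18, 0.94 and 0.65. After length correction they stood at 2.49, 1.06 and 0.79, and Ire1 also lay above 0, at 0.12. None of these passed the threshold, and the part of the length trend as a cause was not tested.

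**Figure D3:**
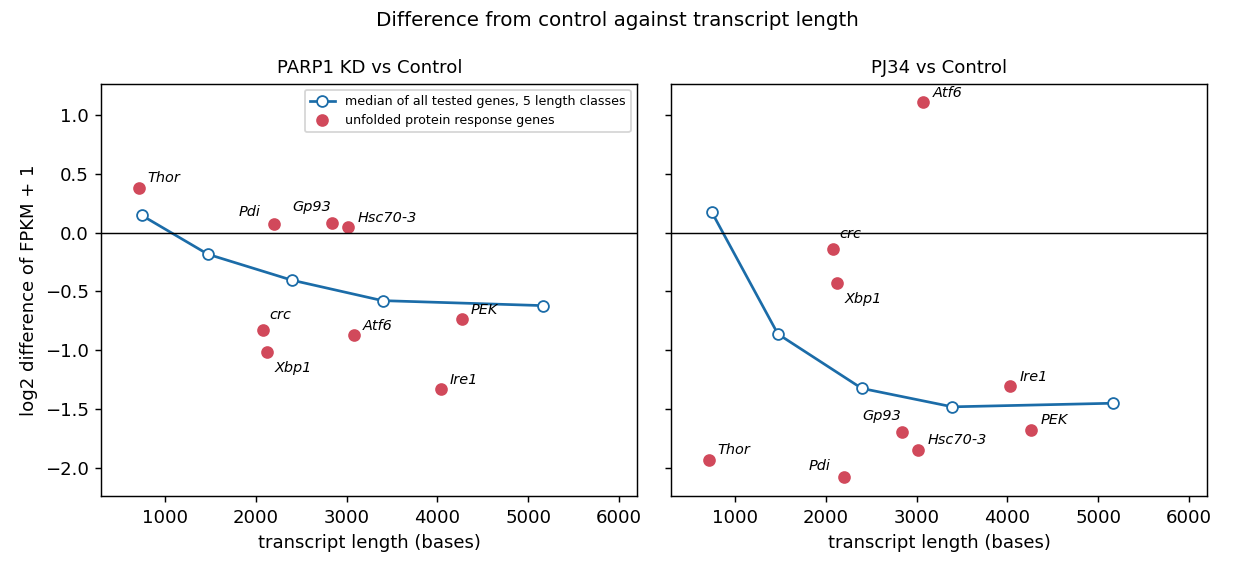
Log2 difference from control against median transcript length in bases, for PARP1 KD and for PJ34. Open circles joined by a line are medians of all genes tested in 5 length classes, and filled points are the 9 genes. For PJ34 the line runs from 0.18 under 1000 bases to −1.45 at 4000 bases or more; PEK and Ire1 lie near it, Atf6 far above it and Thor far below it.

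The third comparison set the treatments against each other. Atf6 and crc were lower in both PARP1 KD libraries than in both PJ34 libraries, and Thor, Hsc70-3, Gp93 and Pdi were higher. Among all genes tested, 17.3% separated downwards and 43.8% upwards in this way. None of the 9 passed the threshold, beside 188 of 7308 genes (0.972% higher and 1.60% lower). At an unadjusted p of at most 0.05, 16.4% of all genes were higher, among them Thor, Hsc70-3, Gp93 and Pdi, and 7.35% were lower, among them Atf6. The log2 difference of Atf6 was −1.98 (SE 0.51, 95% interval −3.11 to −0.86, unadjusted p = 0.00279, limma adjusted p = 0.0691), with a mean of 16.2 FPKM in PARP1 KD and 66.9 in PJ34. This was the smallest adjusted p of any of the 9 genes in the 3 comparisons. It passed under 4 of the 16 alternatives: quantile normalization (0.0295), length correction (0.0418) and the omission of PJ34 library 1 (0.000821) or library 2 (0.0375). Its limma adjusted p ranged from 0.000821 to 0.545 over the 16.

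Thor gave a log2 difference of 2.31 between PARP1 KD and PJ34 (SE 0.62, 95% interval 0.95 to 3.68, limma adjusted p = 0.0747), and 1.37 without PJ34 library 2. Pdi gave 2.16 (SE 0.65, 95% interval 0.73 to 3.59, limma adjusted p = 0.0976), and 1.02 without PJ34 library 2. Both passed when the controls were left out of the fit, at limma adjusted p of 0.00993 and 0.0197, with the same differences and a smaller estimate of the spread. Pdi also passed after length correction, at 1.35 (limma adjusted p = 0.0397). In the other direction, Thor was 1.57 after median centring (limma adjusted p = 0.178) and Pdi was 0.73 by its main transcript (limma adjusted p = 0.552). Hsc70-3 and Gp93 gave 1.89 and 1.78 (limma adjusted p = 0.205 and 0.196), which became 0.34 and 0.49 without PJ34 library 2. For crc the difference was −0.69 and for Xbp1 −0.59, and after length correction that of Xbp1 was −1.39 and passed the threshold (limma adjusted p = 0.0338). PEK and Ire1 did not separate, at 0.94 (SE 0.93) and −0.02 (SE 0.76), and Ire1 turned direction with the pseudocount.

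The table also split some genes into annotated transcripts, with levels estimated by the authors' software. Of the 9 genes, Hsc70-3, Atf6, crc, Ire1 and Pdi had more than 1 transcript row. Shares of a gene's summed FPKM are described without a test. In the current annotation the transcripts of Hsc70-3 differ in length and all have 1968 coding bases. Hsc70-3-RC, the shortest in span, made up 28.0% and 54.0% of the gene in the controls, 81.0% and 86.4% in PARP1 KD, and 19.8% and 16.9% in PJ34. The 3 groups did not overlap. The level of Hsc70-3-RC was 124.1 and 101.5 FPKM in the controls, 255.0 and 242.4 in PARP1 KD and 46.5 and 4.45 in PJ34. In contrast, Hsc70-3-RA measured 252.9 and 76.8, 50.3 and 28.8, and 132.1 and 11.5 FPKM in the same order. The mean sums in PARP1 KD and control were nearly equal, while the estimated shares differed. When the transcript rows were fitted, neither differed from control at the threshold after PARP1 KD. Hsc70-3-RC stood at 1.14 and Hsc70-3-RA at −1.85 (limma adjusted p = 0.785 and 0.727).

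Pdi showed the same order. Pdi-RD, which spans 15130429 to 15134588 and starts inside the span of Pdi-RA, was nearly absent in control library 1 (0.432 of 880.3 FPKM) but made up 30.9% in control library 2, and it reached 55.0% and 69.6% in PARP1 KD. In the PJ34 libraries it was listed at 0 and 0.00234 FPKM. The controls thus differed from each other by more than control library 2 differed from PARP1 KD library 1. Ire1-RB made up 62.8% and 82.6% in the controls, 89.9% and 88.4% in PARP1 KD and 66.6% and 64.6% in PJ34. For crc the transcript crc-RA made up between 97.1% and 98.8% in every library.

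Atf6-RC, which ends before the other Atf6 transcripts, measured 8.90 and 2.38 FPKM in the controls, 0.158 and 0 in PARP1 KD, and 22.2 and 28.0 in PJ34. These were 33.8% and 6.9%, 0.8% and 0.0%, and 38.7% and 36.7% of the gene. Atf6-RA, the main transcript, measured 16.4 and 31.1, 18.4 and 13.3, and 34.4 and 48.1 FPKM. Both transcripts were higher in both PJ34 libraries than in both controls. In PARP1 KD, Atf6-RC lay below both controls, whereas the Atf6-RA values overlapped those of the controls. When the transcript rows were fitted, Atf6-RC was lower in PARP1 KD than in PJ34 and passed the threshold, with a log2 difference of −4.59 (limma adjusted p = 0.0282), as did 1.04% of 9794 transcripts in that direction. In the other direction 1.69% passed, none of them from the 9 genes. The call was lost without PJ34 library 2 (0.0902), without PARP1 KD library 1 (0.299) or without PARP1 KD library 2 (0.424). Its differences from control did not pass (−2.43 for PARP1 KD and 2.17 for PJ34, limma adjusted p = 0.469 and 0.212).

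Shifts of this kind were also found outside the pathway. Here Hsc70-3 had 4 transcript rows, Atf6 and crc 3 each, and Ire1 and Pdi 2 each. Whether they shifted more often than other transcripts was not tested. A higher share in both PARP1 KD libraries than in both controls, by at least 20 percentage points on average, a limit chosen after the shares were seen, was found for 10.7% of 7624 transcripts of genes with several rows. The transcripts Atf6-RA, Hsc70-3-RC and Pdi-RD were among them. A share lower in the same way was found for 9.99%, among them Hsc70-3-RA and Pdi-RA. The order PARP1 KD above control above PJ34 in all 6 libraries was found for 4.54% of these transcripts, and for Hsc70-3-RC and Pdi-RD here. The reverse order was found for 5.43%, and for 5 here: Atf6-RC, Pdi-RA, Hsc70-3-RB, Hsc70-3-RD and crc-RD. Of these, Hsc70-3-RD and crc-RD made up at most 6.2% and 1.1% of their genes. Shares within a gene sum to 100%, so they are not independent. Xbp1 had a single row, so the table does not tell the form spliced by Ire1 from the unspliced one, and activity of that branch could not be read from these data.

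**Figure D4:**
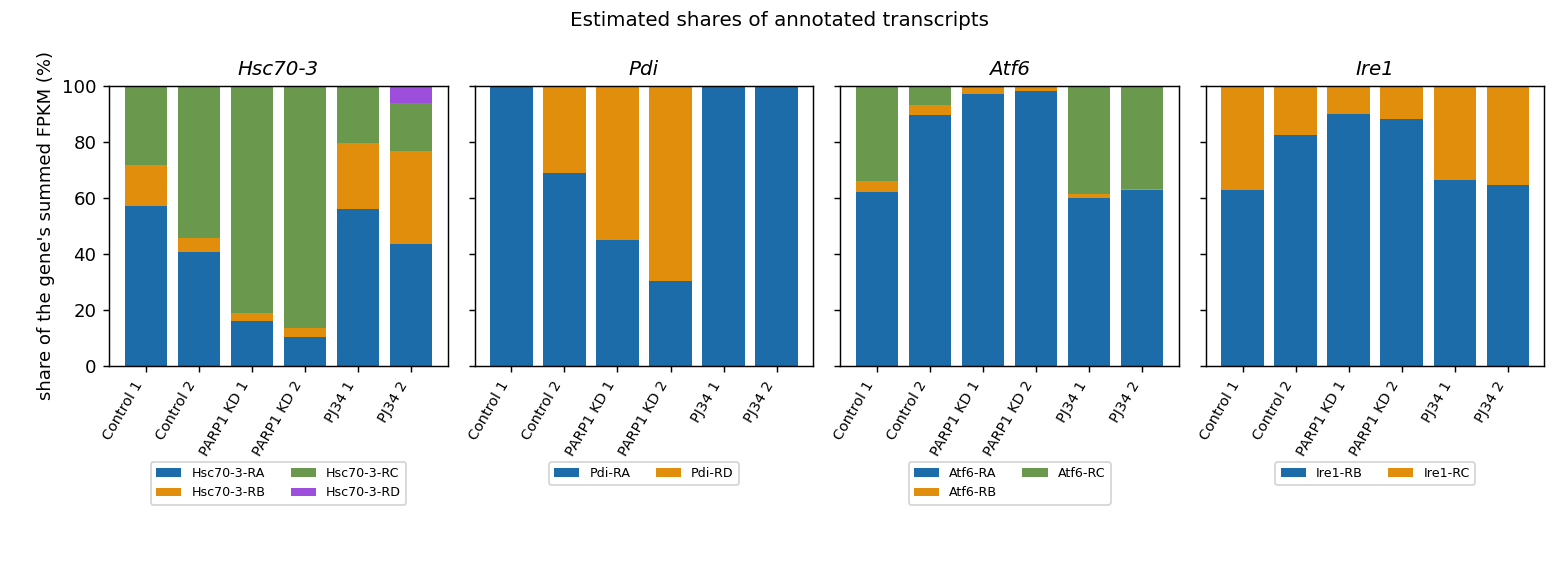
Share of a gene's summed FPKM, in percent, taken by each annotated transcript of Hsc70-3, Pdi, Atf6 and Ire1 in the 6 libraries. Hsc70-3-RC and Pdi-RD take the largest shares in the 2 PARP1 KD libraries (81.0% and 86.4%, 55.0% and 69.6%), and Atf6-RC is nearly absent there.

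The rest of the pathway was examined through 4 lists with 45 genes, of which 43 were tested. None of the 43 passed the threshold in any comparison. After PARP1 KD, 12 tested chaperones and folding enzymes of the endoplasmic reticulum had a median log2 difference of −0.08. Of these 12, 5 were above 0 and 7 below, beside 71.9% of all genes tested below 0. For 14 genes of degradation and translocation the median was −0.21, and for 14 genes of eIF2 phosphorylation and translation control it was −0.21. The 3 genes of Atf6 processing and survival had a median of −0.57. These medians lay on both sides of the −0.28 of all genes. After length correction they were 0.33, 0.02, 0.05 and −0.28, so the direction of the first 3 turned.

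Of the genes with the largest differences without overlap after PARP1 KD, Sil1, the nucleotide exchange factor of BiP, measured 41.5 and 35.2 FPKM in the controls and 28.1 and 17.6 in PARP1 KD. Ero1L, the oxidase that recharges Pdi, measured 27.2 and 30.7 against 20.1 and 14.2. Their log2 differences were −0.76 and −0.74. In degradation, Edem1, which directs misfolded glycoproteins to disposal, stood at −0.98 and Herp at −0.67. In translation control the ribosomal protein kinase S6k stood at −1.22 and the eIF2alpha kinase Gcn2 at −0.92. S1P, a protease of Atf6, measured 9.13 and 7.87 FPKM in the controls and 5.37 and 3.36 in PARP1 KD, a log2 difference of −0.85. After length correction these differences were nearer to 0: −0.41 for Sil1, −0.33 for Ero1L, −0.35 for Edem1, −0.22 for Herp, −0.57 for S6k, −0.23 for Gcn2 and −0.28 for S1P. The spans of Edem1, S6k and Gcn2 overlap other genes. Genes of the lists whose PARP1 KD values both lay above both controls, named after their values were seen, were the calcium-binding chaperone gene Calr (0.50) and, of the translocation channel, Sec61beta (0.45) and Sec61gamma (0.34). Among all genes tested, 10.5% separated upwards in this way and 34.9% downwards. All list genes named in this paragraph had a limma adjusted p of 0.9996.

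After PJ34, the 12 chaperones and folding enzymes were all below 0, as were 79.9% of all genes tested, with a median of −1.62 beside −1.08 for all genes. After length correction their median was −0.50, and Sil1 (1.08) and CaBP1 (0.31) lay above 0. Fkbp14, a prolyl isomerase, measured 481.7 and 309.2 FPKM in the controls, 455.8 and 365.2 in PARP1 KD and 139.4 and 29.1 in PJ34. Its PJ34 values lay below all others, with a log2 difference from control of −2.57 (limma adjusted p = 0.102) that remained at −1.89 after length correction. The chaperone Grp170 stood at −2.09 (limma adjusted p = 0.15) and at −0.70 after length correction. ERp60, a relative of Pdi, measured 924.3 and 351.9 FPKM in the controls, 654.0 and 550.2 in PARP1 KD and 359.2 and 48.8 in PJ34. Both PJ34 values lay below both PARP1 KD values, but library 1 of PJ34 lay between the controls. The span of ERp60 overlaps that of another gene, cuff.

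Degradation and translocation genes had a median of −1.51 after PJ34, beside −1.08 for all genes tested. Below 0 were 12 of 14, and 79.9% of all genes tested. After length correction the median of the 14 was −0.46, with 5 of 14 above 0. Those above 0 as deposited, named after their values were seen, were Sec61gamma of the translocation channel (1.04, limma adjusted p = 0.153) and the derlin Der-1 (0.23). TER94, the ATPase that pulls proteins out of the membrane, stood at −1.97 and Der-2, a derlin, at −1.93 (limma adjusted p = 0.117 and 0.132), and at −0.59 and −1.15 after length correction. Among translation control genes 13 of 14 were below 0, as were 79.9% of all genes tested, and the pseudokinase gene trbl stood at 0.22. Their median was −1.24, beside −1.08 for all genes tested. After length correction their median was −0.26, with 4 of 14 above 0. Gcn2 was listed at 0 in PJ34 library 1 and at 0.633 FPKM in library 2, against 14.4 and 5.43 in the controls. Its log2 difference was −2.96 (limma adjusted p = 0.0728), and −1.53 after length correction. The cap-binding gene eIF4E1, the partner of Thor, stood at −1.87 (limma adjusted p = 0.13) and at −0.997 after length correction.

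The Bax inhibitor BI-1, a membrane protein that in mammals restrains IRE1, measured 119.9 and 173.6 FPKM in the controls, 115.5 and 81.5 in PARP1 KD and 254.8 and 399.1 in PJ34. Both PJ34 values were above both controls and both PARP1 KD values below, as for Atf6. Among all genes tested, 13.1% separated upwards after PJ34 and 34.9% downwards after PARP1 KD, and the share with both was not counted. The log2 difference of BI-1 was 1.14 for PJ34 against control (limma adjusted p = 0.154). For PARP1 KD it was −0.57 against control (limma adjusted p = 0.9996) and −1.71 against PJ34 (limma adjusted p = 0.0724). The proteases S1P and S2P, which in mammals cut Atf6, stood at −0.31 and −1.25 after PJ34 as deposited, and at 1.08 and −0.07 after length correction, so the direction of S1P turned. S1P measured 10.2 and 4.25 FPKM in PJ34, one value above and one below both controls.

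**Figure D5:**
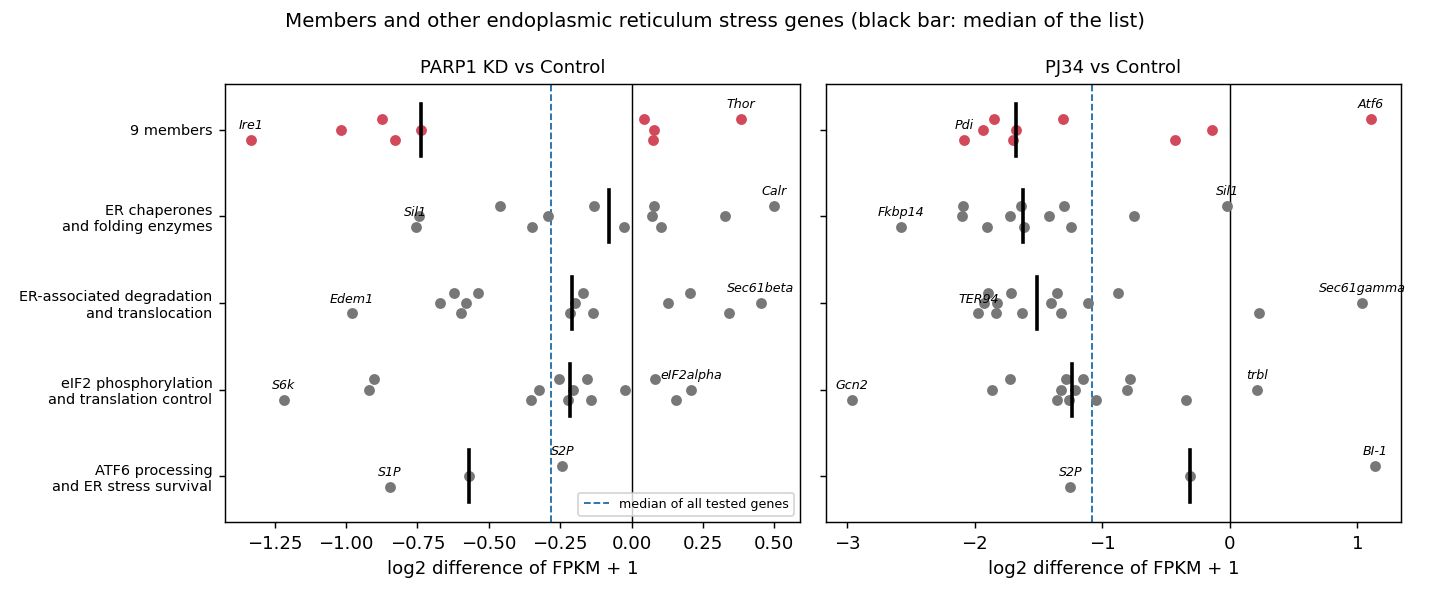
Log2 difference of FPKM + 1 from control for the 9 genes and the 43 tested genes of the 4 lists, after PARP1 KD and after PJ34. Points are genes, black bars list medians, the dashed line is the median of all genes tested, and the lowest and highest gene of each list are named. After PJ34 all 12 chaperones lie below 0, while Atf6 and BI-1 lie at 1.11 and 1.14.

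The 3 of the 9 genes with the widest range over the libraries were Hsc70-3, PEK and Gp93, with 16.8-fold, 24.9-fold and 13.6-fold between their highest and lowest library. In each, control library 1 was the highest and PJ34 library 2 the lowest. As a description, the genes with the most similar pattern of log2(FPKM + 1) over the 6 libraries were Bap111, MED17 and Ns4 for Hsc70-3, Deaf1, CG8726 and ValRS for PEK, and Mtpalpha, CG8600 and CG32452 for Gp93. None of these is in the lists of the pathway. All correlations were at least 0.9986, chosen as the highest among 7308 genes, over libraries that differ in their length trend.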

How the data were processed

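Paired-end RNA-seq of 6 S2 cell libraries was processed by the authors with TopHat2 2.0.10, Bowtie2 2.1.0.0 and Cufflinks 2.1.1 on the dm3 build, as named in the submitters' notes and the paper. The deposited values are FPKM per annotated transcript, scaled by the authors for transcript length and mapped fragments. Control columns were matched to samples by name. Treatment columns show the group only.

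FPKM rows with the same CG number were summed. Genes averaging 1 FPKM or more were tested on log2(FPKM + 1), which understates changes of low genes, with limma 3.58.1 (R 4.3.3): all 6 libraries, 1 mean per group, empirical Bayes with intensity trend, Benjamini-Hochberg adjustment over 7308 genes and a threshold of 0.05. FPKM are not counts, so no count test was used. An exact permutation test of 2 against 2 libraries cannot go below a two-sided p of 0.333. Transcript lengths (median per gene, known for 96.2% of genes tested) came from the Ensembl BDGP6 annotation, whose coordinates were not used. Length correction subtracted a lowess trend (span 0.4) from each library. Depth was compared from the steps of low FPKM, where 1 FPKM per kilobase stood for about 24.7 fragments in control library 1. Symbols came from RefSeq. Figures were drawn with matplotlib 3.10.9.

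The 9 genes, the lists and the markers were chosen with earlier results of these data known. Named list genes were those past the threshold and, per list and comparison, up to 2 with the largest difference among groups without overlap. Genes of similar pattern were the 3 with the highest Pearson correlation. The listed genes eIF2gamma and vas were not matched under these names. Alternatives were pseudocounts of 0.1 and 5, quantile normalization, median centring, no filter, a minimum of 5 FPKM, only the 4 libraries compared, no trend, length correction, transcript rows, each library left out, and unadjusted p. Sequences were not used here.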

Additional observations from a re-analysis of the deposited data

How the results depend on the processing

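None of the 9 genes passed in the fits reported, and none passed for PARP1 KD against control under any alternative. For PJ34 against control, 3 of the 9 had an unadjusted p of at most 0.05, and 0 to 8 passed when 1 library was left out, the 8 without PJ34 library 1. For PARP1 KD against PJ34, 1 passed with quantile normalization, 3 with length correction, 2 with only the 4 libraries compared and 5 at an unadjusted p of at most 0.05, and 0 to 6 passed when 1 library was left out, the 6 without PJ34 library 1.

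Counts over all genes moved more. For PARP1 KD against control the 0 genes became 23 with only the 4 libraries compared, 15 on transcript rows, 209 at an unadjusted p of at most 0.05, and 0 to 72 when 1 library was left out. For PJ34 against control the 47 genes became 27 and 76 with pseudocounts of 0.1 and 5, 164 with quantile normalization, 7 without a filter, 187 with length correction, 15 with only the 4 libraries compared, 28 with no trend, 5 on transcript rows, 2273 at an unadjusted p of at most 0.05, and 9 to 5106 when 1 library was left out. For PARP1 KD against PJ34 the 188 genes became 69 and 284, 555, 6, 1312, 457 and 56 in the same order of settings up to no trend, 117 both with median centring and with a minimum of 5 FPKM, 1735 at an unadjusted p of at most 0.05, and 1 to 4222 when 1 library was left out.

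Of 432 values of single genes under alternatives, 384 kept direction and side of the threshold, 26 newly passed and 22 turned direction. After PARP1 KD, leaving out 1 library moved Thor between −0.16 and 0.92, Hsc70-3 between −0.57 and 0.66, PEK between −1.68 and 0.21, Gp93 between −0.65 and 0.81 and Pdi between −0.18 and 0.33, and Pdi was −1.09 by its main transcript. After PJ34, crc became 1.0004 with median centring and 1.06 with length correction and lay between −0.37 and 0.0922 when 1 library was left out. Xbp1 became 0.71 and 0.79 and lay between −1.10 and 0.24, and Ire1 became 0.12 with length correction. Between the treatments, Ire1 became 0.0088 with a pseudocount of 0.1 and 0.36 by its main transcript, and lay between −1.15 and 1.10 when 1 library was left out. Xbp1 lay between −1.26 and 0.0869, and PEK between −0.32 and 2.21. The cause was not tested. Leaving out a library leaves 1 in its group, which is assumed to vary like the others. The omissions for Atf6-RC were chosen after seeing the data, and its log2 difference lay between −4.75 and −4.43.

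No paired analysis was possible because the treatment libraries are all numbered as a first replicate in the labels. Precision was limited by 2 libraries a group and, for PJ34, by the distance between its libraries, which lay at least 2-fold apart in 57.0% of genes.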
